A study of Homo sapiens with 2 samples.

Results

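PDP2, a phosphatase that switches the pyruvate dehydrogenase complex on, gave a lower signal in prostate epithelial cells transfected with pre-miR-424 than in control cells, by 3.38-fold on average over the arrays. The other measured genes of the same switch stayed within 2-fold, a bound that only 0.101% of all measured genes passed on both arrays. The switch was taken as 10 genes, namely the phosphatase subunits PDP1, PDP2 and PDPR, the kinases PDK1, PDK2, PDK3 and PDK4, and the complex components PDHA1, PDHB and PDHX. They are 10 of the 19740 genes that could be named on the array through a RefSeq accession, and 12 probes carry an accession of one of them. The set was chosen by the log2 ratio of PDP2 in this very comparison, with the other members added for their place in the same switch, so all ratios below are a description and none was tested.

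RNA came from RWPE-1, an established noncancerous cell line of human prostate epithelium. One group had been transfected with pre-miR-424 at 30 nM, a synthetic RNA from which cells make the microRNA miR-424, and the other with Negative control #1 at 30 nM. Both RNAs were labelled and hybridised together to 2 Agilent two-colour arrays. On the normal array the pre-miR-424 RNA carried Cy5 and the control RNA Cy3, and on the dye swap the dyes were exchanged. As the labels call the arrays technical replicates, they count as 1 replicate, so the SD over arrays covers labelling and hybridisation error only, not the variation between cultures, and no p-value was computed.

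The median spot signal lay between 165 and 189 in Cy3 and between 290 and 314 in Cy5, over median backgrounds of 28 to 29 and 69 to 70, and no spot was saturated. Probes were called measured if both dyes on both arrays stood well above background and no spot was an outlier, which left 13812 genes, each read by its brightest measured probe. All 7 epithelial markers checked (KRT5, KRT14, KRT8, KRT18, TP63, CDH1 and EPCAM) were measured. KLK3, a luminal prostate marker, was not measured. The stromal markers ACTA2, DES and COL1A1 and 1 of the 4 probes of the leukocyte marker PTPRC were also well above background, and none of these markers differed by 2-fold on both arrays. All 7 epithelial markers were of unequal sign on the arrays, as were 46.5% of all measured genes. Among them were the very bright probes of KRT5, at 0.092 and −1.09, and of KRT18, at 0.73 and −0.55. The part of these markers in the results was not tested. No probe matched MIR424 itself, so the delivery of the microRNA was not measured here.

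The pyruvate dehydrogenase complex sits in the mitochondrial matrix and turns pyruvate, the end product of glycolysis, into acetyl-CoA for the citric acid cycle. Its activity is set by phosphorylation of the PDHA1 subunit, which PDK kinases add and thereby switch the complex off, and which PDP phosphatases remove and thereby switch it on. Normal prostate epithelium is known for a citric acid cycle that is held back at citrate, which the gland secretes.

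MicroRNAs pair with messenger RNAs chiefly through their seed, bases 2 to 8 from the 5′ end. The mature sequences of both arms of miR-424 are shown because they are the products of the precursor that the cells received, and 4 microRNAs from other loci are shown beside them because they have the seed of the 5p arm. They are taken from RefSeq (GRCh38.p14), 5′ to 3′, with the seed in capitals.
hsa-miR-424-5p: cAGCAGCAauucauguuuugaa
hsa-miR-424-3p: cAAAACGUgaggcgcugcuau
hsa-miR-16-5p: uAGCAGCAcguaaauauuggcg
hsa-miR-15a-5p: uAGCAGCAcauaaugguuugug
hsa-miR-195-5p: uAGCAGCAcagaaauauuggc
hsa-miR-497-5p: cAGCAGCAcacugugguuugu
The first 2 sequences are the arms of the MIR424 hairpin, at chrX:134546680-134546701 and chrX:134546644-134546664 on the minus strand. The 5p arm has the seed AGCAGCA, shared by 7 mature microRNAs in the table, whereas the 3p arm has another seed. A fully paired seed site in a messenger RNA reads UGCUGCU. The messenger RNA sequences of the members were not analysed here, so no statement on such sites in PDP2 or the other genes is made.

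PDP2 (NM_020786) encodes a catalytic subunit of pyruvate dehydrogenase phosphatase, and unlike PDP1 it is known not to need stimulation by calcium. The array carries 1 probe for it, printed as 1 spot, so its value rests on 1 spot per array. On the normal array the spot signal was 248 with pre-miR-424, in Cy5 over a local background of 68.5, and 544 with control, in Cy3 over a background of 27. On the dye swap it was 136 with pre-miR-424, in Cy3 over a background of 28, and 927.5 with control, in Cy5 over a background of 65. The control RNA thus gave the brighter spot in either dye. The signals of both groups were well above background on both arrays.

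After background subtraction but before any normalization, the log2 ratio of pre-miR-424 over control at the PDP2 spot was −1.53 on the normal array against −3.00 on the swap. The median of all measured probes was itself 0.53 on the normal array against −0.91 on the swap. Measured against those medians, PDP2 lay at −2.05 and −2.09. The unnormalized signals therefore place PDP2 at nearly the same distance below the other probes under both labellings.

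With normalization, in which an offset of 50 is added to each signal and the intensity-dependent dye effect is removed by loess, the level of PDP2 on the log2 scale was 7.65 with pre-miR-424 and 9.36 with control on the normal array. On the swap it was 7.64 and 9.44. The pre-miR-424 levels were nearly equal on the arrays, as were the control levels. These levels were taken after a scaling that gives the arrays a common distribution of brightness, so part of this nearness is built in. The log2 ratios were −1.72 and −1.80, with a mean of −1.76 (SD 0.054, 2 arrays, 1 replicate), that is 3.29-fold and 3.47-fold lower with pre-miR-424. The offset draws the ratios of dim probes towards 0, and with an offset of 16 the mean was −1.96. The scanner software, which differs in background correction and normalization as well, gave log2 ratios of −2.19 and −2.40 for the same spots.

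**Figure D1:**
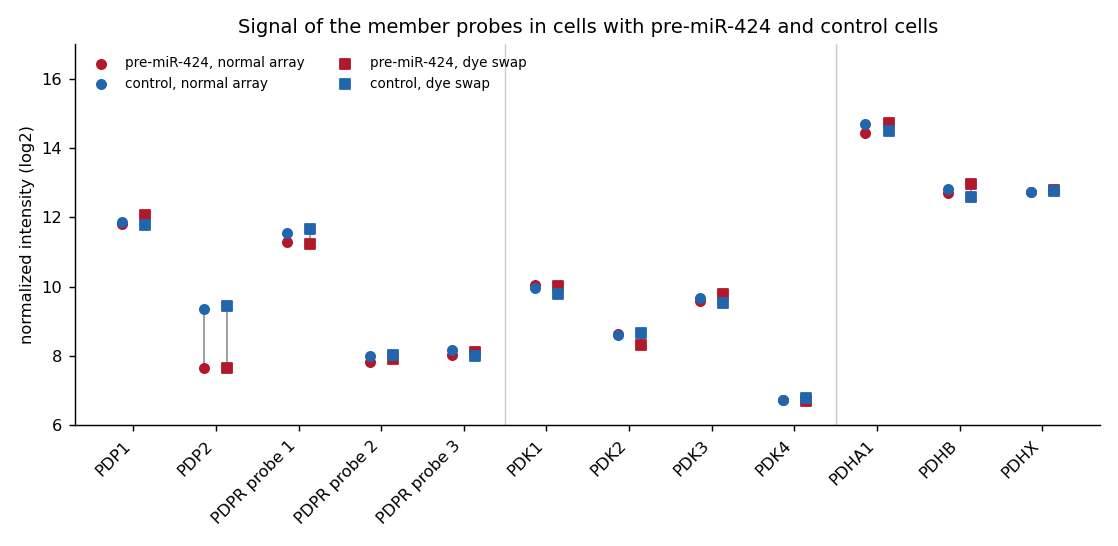
Normalized intensity (log2) of each of the 12 member probes in cells with pre-miR-424 (red) and control cells (blue), on the normal array (circles) and the dye swap (squares), grouped into phosphatases, kinases and complex components. Grey lines join the groups within an array, levels are comparable only within a probe, and PDP2 is the only probe with a wide gap, from 7.65 to 9.36 and from 7.64 to 9.44.

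The mean log2 ratio of PDP2 was the lowest of the 13812 measured genes, at rank 1, and it held rank 2 from the lowest on the normal array and rank 4 on the swap. It was 1 of 4 genes lower by 2-fold on both arrays, a rule passed by 0.029% of the measured genes in this direction and by 0.0724% (10 genes) in the other. Under median centring in place of loess the split was 6 genes higher and 5 lower. It depended on the array, with 35 genes higher and 8 lower at 2-fold on the normal array taken alone, but 28 higher and 48 lower on the swap taken alone. A further 16 genes passed 2-fold in opposite directions on the arrays, following the dye, against 14 that passed it in one direction. Pearson's r between the arrays over the measured genes was 0.21. As this contrast chose PDP2, nothing is read from these shares. To set an error beside single ratios, the dye component was computed, which is the difference between the arrays divided by 2. Among 1537 genes within 0.5 of the brightness of PDP2 on the log2 scale, the SD of this component was 0.15, whereas PDP2's own component was 0.038. The central 95% of mean log2 ratios of those genes ran from −0.44 to 0.42, and the lowest after PDP2 was −0.98. As PDP2 was chosen by its ratio, its place outside this range is no result.

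By the distance between pairs of log2 ratios over the 2 arrays, the genes most like PDP2 were LPP (NM_005578), with −1.74 on the normal array against −1.53 on the swap, LSM11 (NM_173491), at −1.42 and −1.22 on these arrays, followed by LTK (NM_002344), at −1.36 and −1.26. Their distances from PDP2 were 0.27, 0.65 and 0.65. They are the other genes lower by 2-fold on both arrays, and with only 2 arrays of the same RNAs the likeness says no more than that the sizes are near each other.

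**Figure D2:**
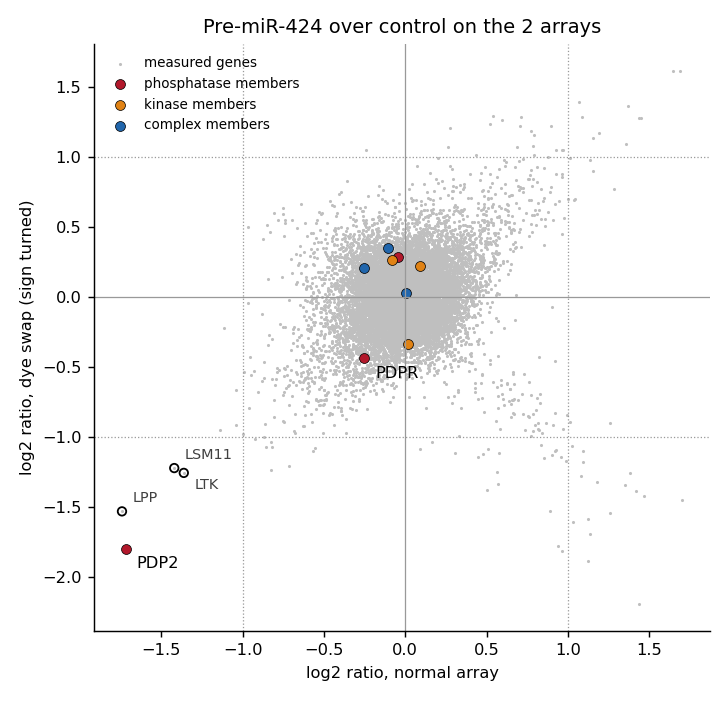
Log2 ratio of pre-miR-424 over control on the normal array (x axis) and on the dye swap with its sign turned (y axis) for the 13812 measured genes (grey), with the members coloured by role, the 3 genes nearest to PDP2 circled, and dotted lines at 2-fold. PDP2 lies at −1.72 and −1.80 in the lower left corner, while the other 8 measured members lie inside the main cloud, PDPR at −0.25 and −0.44.

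PDP1 (NM_001161779) encodes the other catalytic subunit of the phosphatase, which calcium stimulates. Its probe was printed as 2 spots. The mean spot signal on the normal array was 4505 with pre-miR-424 against 3057 with control. On the swap it was 3044 against 4974. These pairs follow the dyes, Cy5 being the brighter channel both times. The normalized log2 ratio was 0.016 and −0.10 at the spots of the normal array, and it was 0.29 and 0.28 at those of the swap. The arrays gave −0.043 and 0.28 (mean 0.12, SD 0.23), so that the sign was unequal and the mean was smaller than the SD. The log2 ratio of PDP2 minus that of PDP1 was −1.68 on the normal array against −2.08 on the swap.

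PDPR (NM_017990) encodes the regulatory subunit of the phosphatase and was read by 3 measured probes of 1 spot each. The brightest gave signals of 3107 with pre-miR-424 and 2441 with control on the normal array and of 1685.5 and 4514.5 on the swap, and its log2 ratios were −0.25 and −0.44 (mean −0.34, SD 0.13, 1.27-fold lower). This was the lowest mean among the members after PDP2, and 3.68% of measured genes lay lower. The second probe gave −0.19 and −0.099 (mean −0.14, SD 0.064), and the third −0.15 and 0.092 (mean −0.031, SD 0.17). The probes therefore gave unequal sizes, and the third changed sign between the arrays. The mean over the 3 probes was −0.17. RefSeq also lists PDPR2P, a transcribed pseudogene with a name derived from PDPR, and whether its transcripts bind to these probes was not tested.

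The 4 kinases share the task of phosphorylating PDHA1. PDK1 (NM_002610), known to be induced in hypoxia, gave log2 ratios of 0.036 and 0.14 at its spots on the normal array and of 0.28 and 0.16 on the swap. All 4 spot ratios were above 0, but the mean over arrays was only 0.16 (SD 0.096), 1.11-fold higher with pre-miR-424. PDK2 (NM_002611), the most widely expressed kinase of the family, gave −0.12 and 0.15 on the normal array and −0.37 and −0.30 on the swap. Its spots disagreed in sign on the normal array, where the mean was 0.018, against −0.33 on the swap (mean −0.16, SD 0.25).

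PDK3 (NM_005391) gave −0.029 and −0.13 at its spots on the normal array and 0.15 and 0.38 on the swap. Its arrays had unequal signs, with means of −0.078 and 0.26 (mean 0.093, SD 0.24). PDK4 (NM_002612), known to be induced in fasting, was not measured. Of its 2 spots, 1 passed the background criterion in each dye on each array and the other in none. The mean spot signals of PDK4 were 136.5 with pre-miR-424 and 82.75 with control on the normal array, and 74.25 and 143.75 on the swap. They were near background in either group, so its spot ratios are plotted as open points only and enter no count or median.

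**Figure D3:**
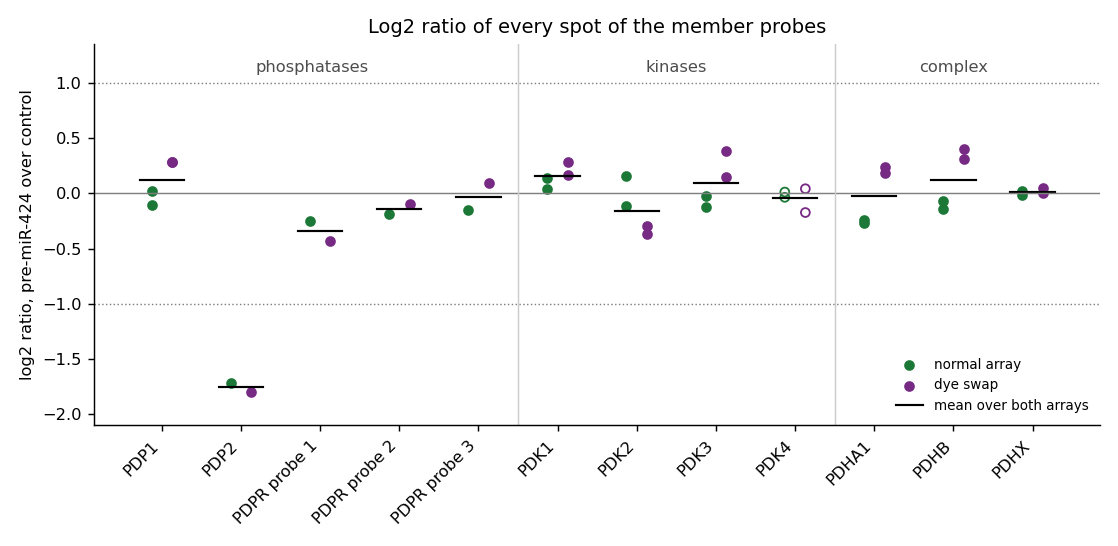
Log2 ratio of pre-miR-424 over control at every spot of the 12 member probes on the normal array (green) and the dye swap (purple), with the mean over both arrays as a black bar and dotted lines at 2-fold. Open points mark PDK4, which was not measured. PDP2 lies at −1.72 and −1.80, and the spots of all other members lie between −0.44 and 0.40.

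PDHA1 (NM_000284), which carries the phosphorylation sites, was a bright probe, with mean spot signals of 29532 with pre-miR-424 and 19970 with control on the normal array and of 17757 and 34765 on the swap. Its log2 ratios were −0.25 and 0.21 (mean −0.021, SD 0.33). PDHB (NM_000925), the partner of PDHA1 in the decarboxylating enzyme, gave −0.11 and 0.35 (mean 0.12, SD 0.33). For both subunits the spots of an array lay close together while the arrays differed in sign. The dye component was −0.23 for each, larger in size than the mean. PDHX (NM_003477), which anchors the dihydrolipoamide dehydrogenase to the core of the complex, gave 0.0047 and 0.026 (mean 0.015, SD 0.015), the closest to 0 of all members.

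Of the 9 measured members, PDP2 was the only one past 2-fold on both arrays, against 0.101% of all measured genes in either direction. The contrast chose PDP2, so this count is no result. Counting signs alone, PDP2 and PDPR were lower on both arrays, PDK1 and PDHX higher on both, and the other 5 members of unequal sign. Across all measured genes these classes held 26.7%, 26.8% and 46.5%. The 8 members other than PDP2 had a median of 0.054, beside −0.0042 for all measured genes. That median was −0.061 on the normal array against 0.22 on the swap, so its sign depended on the array. With each mean set against the SD of the dye component among genes of like brightness, 5 of the 8 lay within 1 SD (PDP1, PDK3, PDHA1, PDHB and PDHX) and PDK1 and PDK2 at 1.04 and 1.06 SD. PDPR lay at 2.42 SD by its brightest probe. Its mean of −0.34 was still inside the central range of mean log2 ratios among genes of its brightness, −0.45 to 0.43. That range was taken in the same way as the one given for PDP2 above. The share of all measured genes within 1 SD is not given here, so nothing is read from the count of 5. PDP2 is left out here because this contrast chose it. The SD used covers labelling and hybridisation error only, not the variation between cultures. The paired spots of a probe differed by a median of 0.080 within an array over 16 pairs (largest 0.27), and for each measured member with 2 spots except PDHX the spots differed by less than the arrays did.

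**Figure D4:**
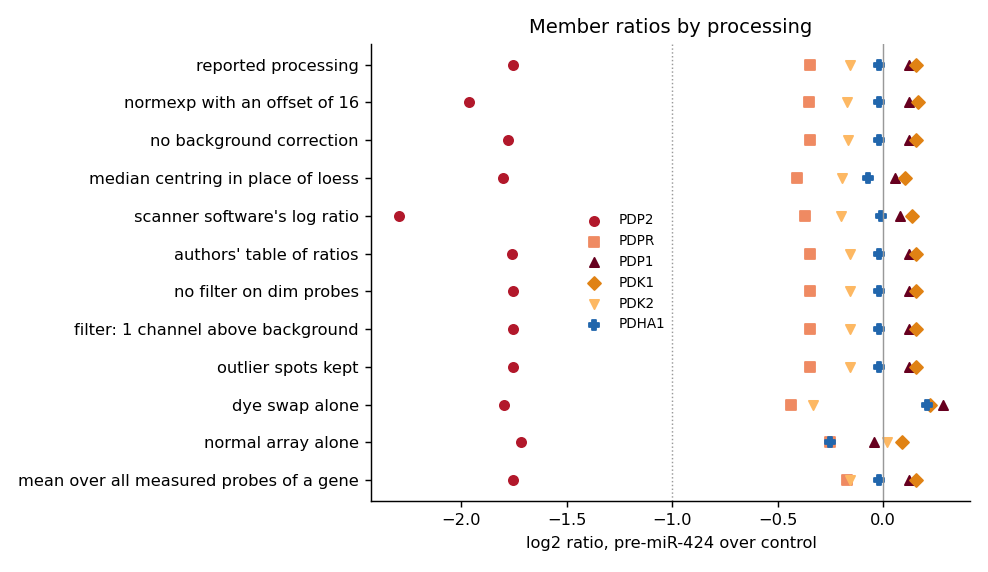
Log2 ratio of pre-miR-424 over control (x axis) for PDP2 and 5 other members under each way of processing (rows), with a dotted line at 2-fold lower. PDP2 stays between −2.30 and −1.72, while the signs of PDP1, PDK2 and PDHA1 differ between the arrays taken alone.

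The neighbourhood of the switch was described with 6 gene lists, in none of which a gene passed 2-fold on both arrays. Only 0.101% of all measured genes passed this rule, so nothing is read from its absence in short lists. For the sign counts below, 26.8% of all measured genes were higher and 26.7% lower on both arrays. The remaining core enzymes of the complex are DLAT, which forms acetyl-CoA, and DLD, which reoxidises the lipoyl arms. DLD gave −0.23 and −0.22 and DLAT −0.11 and −0.15, so both were slightly lower on both arrays, with a median of −0.18. PDHA2, the testis form of PDHA1, was not measured.

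Among 13 genes of pyruvate supply and its other fates, 4 were higher and 6 lower on both arrays (median −0.076). The largest difference was that of PKM, the pyruvate kinase that makes pyruvate in glycolysis, with −0.53 on the normal array against −0.77 on the swap (mean −0.65, SD 0.17). PKM kept this sign under every alternative, between −0.70 and −0.65 with both arrays. It was followed by PC, the pyruvate carboxylase, with −0.085 and −0.48 (mean −0.28, SD 0.28). The lactate dehydrogenases LDHA (0.34 and −0.31) and LDHB (0.40 and −0.41) changed sign with the labelling, so that their ratios followed the dye. Of the carriers that bring pyruvate into mitochondria, MPC1 was lower on both arrays, at a mean of −0.076. MPC2 was higher on both, at 0.23 and 0.12 (mean 0.18).

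Of 16 genes of the citric acid cycle, 14 were measured, with 1 higher and 6 lower on both arrays (median −0.048). FH, the fumarase, was the one higher, at 0.24 and 0.30 (mean 0.27, SD 0.047). DLST, the core subunit of the related 2-oxoglutarate dehydrogenase, had −0.14 and −0.36 (mean −0.25, SD 0.15). None of these ratios reached 1.5-fold on either array, while the median of the list was near that of all genes.

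The branched-chain dehydrogenase is switched by a kinase and a phosphatase in the same way. Its kinase BCKDK, a relative of the PDK enzymes, gave −0.11 and −0.47 at the brightest probe and −0.16 and −0.36 at the other. Its phosphatase PPM1K, a relative of PDP2, gave −0.052 and 0.33, without a common sign. DBT, the core subunit, gave 0.32 and 0.10. Over the 5 genes the median was −0.0013, with 1 higher and 1 lower on both arrays.

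For the making and attachment of lipoate, a cofactor of the complex, 1 of 6 genes was of one sign on both arrays, LIPT2 with 0.14 and 0.25, and the median was −0.030. Of 8 transcription factors and coactivators known to act on PDK genes, 7 were measured, 2 were higher and 1 lower on both arrays, and the median was 0.070. FOXO1, which activates PDK4 in fasting, gave 0.30 and 0.24 (mean 0.27, SD 0.046), and ESRRA gave −0.074 and −0.21 at its brightest probe, while its other probe changed sign (0.096 and −0.40). HIF1A, the hypoxia factor that induces PDK1, gave −0.0010 and 0.36. PPARGC1A was not measured.

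**Figure D5:**
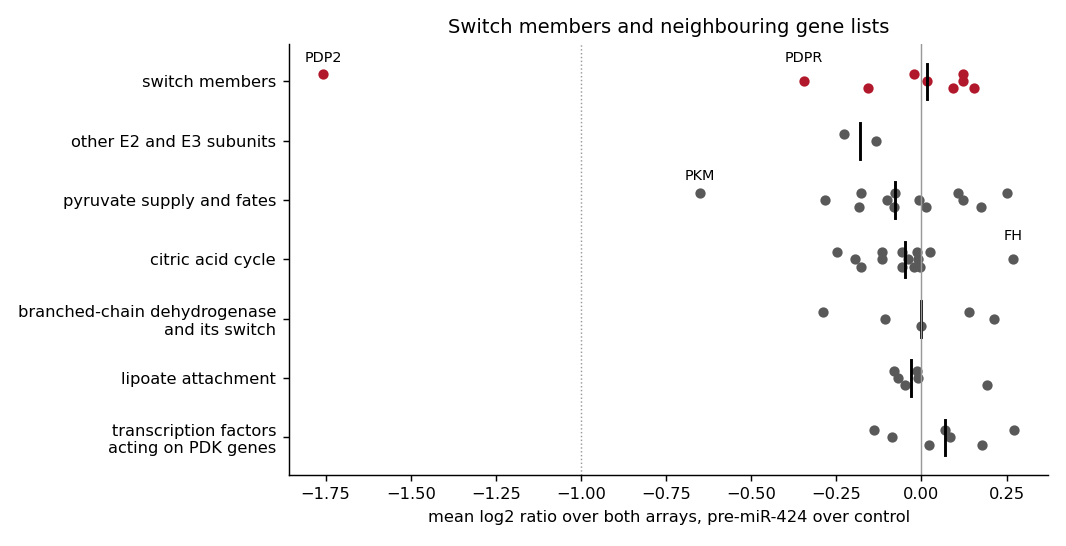
Mean log2 ratio of pre-miR-424 over control over both arrays (x axis) for the 9 measured switch members (red) and the measured genes of 6 neighbouring lists (grey, spread vertically for legibility), with black bars at the medians and a dotted line at 2-fold lower. PDP2 stands apart at −1.76, and the lowest of the list genes is PKM at −0.65.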

How the data were processed

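The authors deposited 1 scanner file per array, which per the file headers gives the median spot and background intensity of each channel (linear, before normalization). Each deposited file also gives a log10 ratio, red over green, from the scanner software. A further table that the authors deposited holds log2 ratios made with limma, with steps not stated in the sources used here. Its columns followed Cy5 over Cy3 (Pearson's r of 0.991 and 0.988 with the ratios computed here over 42405 probes; column medians 0.024 and 0.036).

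Here limma 3.58.1 (R 4.3.3) corrected background by normexp (offset 50) on all 62976 spots, left out control spots, and normalized each array by loess. Aquantile scaling served levels only. Repeated spots were averaged within a probe. The swap's sign was turned. A repeated probe counted as above background when most of its spots were. Groups and dyes came from the labels. RefSeq accessions stood on 27134 probes, and 25771 of them (95.0%) had a symbol in a RefSeq table (GRCh38.p14), used for names only, since the array design is on hg19.

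A gene differed at 2-fold or more in the same direction on both arrays; no test was run, and the number of arrays limits precision. The members, lists and rules were chosen with earlier results of these data known. Named were all members, per list the genes past 2-fold or otherwise the 2 largest of one sign, the 3 genes nearest to PDP2, and genes added after their values were seen (LDHA, LDHB, MPC1, MPC2, PPM1K, HIF1A). Alternatives covered background, normalization, source of the ratio, filters, probes, arrays and threshold. The 2-fold rule and the turning of the swap were tested on simulated log2 ratios, in Python 3.11.15 with pandas 2.3.3 and numpy 2.4.6. Background correction and normalization were not tested in this way.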

Additional observations from a re-analysis of the deposited data

How the results depend on the processing

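PDP2 stayed below −1 under all 11 alternatives run for it, but not all of these could move it. Its value rests on 1 probe with 1 spot, so the filter, outlier and probe alternatives could not change it. The 2-fold rule had already placed each array below −1. PDP2 was −1.96 with a normexp offset of 16 and −2.30 with the scanner software's log ratios, which differ in more than 1 step. With each array alone it ran from −1.80 to −1.72. The count of members past 2-fold was 1 under every alternative. The measured genes past 2-fold, 14 as reported, were 24 with the scanner software's ratios, 140 at 1.5-fold (86 higher, 54 lower), and 43 to 76 with each array alone, where no repeat was required (35 higher and 8 lower on the normal array, 28 higher and 48 lower on the swap). The median of the other members ranged from −0.061 to 0.22 with each array alone. The cause of the other shifts was not tested. DLAT and DLD had a median of −0.23 under median centring and of −0.23 with the scanner software's ratios, and without the filter on dim probes the median was −0.13, because PDHA2 then entered. The list of pyruvate supply and fates had −0.13 under median centring, which moved the median of all genes to −0.044 and split the 2-fold genes into 6 higher and 5 lower, against 10 and 4 as reported. With each array alone, the medians ran from −0.085 to −0.030 for that list, from −0.057 to 0.078 for lipoate attachment and from −0.00022 to 0.097 for the transcription factors. In all, 309 of 330 comparisons with the reported values stayed within the spread between arrays or, for counts, within 1.5 times, and no called value reversed. Part of this tally was fixed in advance. For a single gene, either array alone always lies within the spread between the arrays. The filter and outlier alternatives left the values of the single genes compared unchanged. The tally is therefore no measure of stability. Of the smaller members, PDHX changed sign under 1 of 9 alternatives with both arrays. An alternative with the mean spot signal was not run, because the deposited scanner output holds no mean spot signal. Signs shared by both arrays have no value with 1 array. No paired analysis was possible because each ratio is already taken within an array. Signal over background limits the dim probes, PDP2 among them.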
